A study of Homo sapiens with 6 samples.

Results

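The Krüppel-like factor (KLF) genes KLF1, KLF2, KLF3, KLF4, KLF6, KLF9 and KLF10 were examined for accessibility over a time course of phorbol ester treatment. Listed sites that overlapped the gene or the 50 kb on either side of it were taken as the window of that gene, which gave 114 of 181135 sites. The windows held 16 sites at KLF1, 16 at KLF2, 12 at KLF3, 13 at KLF4, 26 at KLF6, 13 at KLF9 and 18 at KLF10, and no site fell into more than 1 window. ATAC-seq, in which a transposase cuts open chromatin so that reads over a site measure how accessible it was, had been run by the Omni-ATAC protocol on K562, an established human leukaemia cell line of erythroleukaemic character. All cells were labelled wild type, and PMA (phorbol 12-myristate 13-acetate, an activator of protein kinase C) was given at 25 nM, a treatment the submitters use to drive the line towards megakaryocytes. The 3 groups were 0 h, 6 h and 72 h of PMA, with 2 libraries each, and the 0 h libraries, from cells with no time in PMA, are the controls. Nothing in the labels says whether the libraries of a group came from separate cultures, so the p-values below measure the spread between libraries, which may be technical. RNA was not analysed here, and accessibility near a gene is not its expression.

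KLF proteins bind CACCC and GC-rich boxes through a C-terminal array of zinc fingers, and members activate or repress depending on the partner their N-terminal part recruits. KLF1, also called erythroid Krüppel-like factor, is largely confined to erythroid cells and activates the adult beta-globin gene and many other red cell genes. KLF2, KLF4, KLF6, KLF9 and KLF10 are best known as genes that signals switch on: KLF2 and KLF4 in endothelium and monocytes, KLF6 as an early gene of tissue injury, KLF9 under glucocorticoid and thyroid hormone, and KLF10 under transforming growth factor beta. KLF3 is a repressor that recruits the corepressor CtBP and is itself a known target of KLF1 in erythroid cells.

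The sequences just upstream of the starts are shown for the erythroid KLF1 and for KLF2, KLF4 and KLF6, whose windows gained accessibility at 6 h. They are the 250 bases before the gene start, 5′ to 3′ on the strand of the gene, from RefSeq on GRCh38.p14: chr19:12887202-12887451 (minus strand) for KLF1, chr19:16324576-16324825 (plus) for KLF2, chr9:107489770-107490019 (minus) for KLF4 and chr10:3785210-3785459 (minus) for KLF6. Capitals mark matches to the motifs named after the sequences.
KLF1: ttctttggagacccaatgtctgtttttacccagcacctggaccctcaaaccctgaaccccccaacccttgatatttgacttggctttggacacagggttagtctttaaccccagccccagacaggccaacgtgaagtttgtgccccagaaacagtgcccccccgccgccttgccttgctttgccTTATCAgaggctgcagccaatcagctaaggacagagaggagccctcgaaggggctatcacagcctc
KLF2: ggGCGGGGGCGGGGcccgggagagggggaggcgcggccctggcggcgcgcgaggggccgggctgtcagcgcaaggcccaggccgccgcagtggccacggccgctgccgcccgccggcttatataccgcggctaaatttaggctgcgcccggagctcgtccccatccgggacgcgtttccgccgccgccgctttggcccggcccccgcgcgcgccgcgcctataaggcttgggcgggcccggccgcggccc
KLF4: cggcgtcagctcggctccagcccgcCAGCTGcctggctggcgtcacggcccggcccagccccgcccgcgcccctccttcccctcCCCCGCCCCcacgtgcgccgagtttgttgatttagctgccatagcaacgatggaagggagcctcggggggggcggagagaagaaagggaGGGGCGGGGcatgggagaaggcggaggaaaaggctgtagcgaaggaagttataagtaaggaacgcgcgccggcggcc
KLF6: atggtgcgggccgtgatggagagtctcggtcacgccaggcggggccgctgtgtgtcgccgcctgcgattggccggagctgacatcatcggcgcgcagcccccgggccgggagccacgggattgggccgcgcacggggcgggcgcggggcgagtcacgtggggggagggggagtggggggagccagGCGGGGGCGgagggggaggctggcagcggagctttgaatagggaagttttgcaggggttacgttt
In the KLF1 sequence the capitals are a GATA motif, TGATAA read on the opposite strand, whose first printed base lies 66 bases before the start. This motif is held on either strand by 7.53% of the 35116 RefSeq promoters. Shares of promoters given here were counted over 300 bases, which are the 250 before the start and the 50 after it, so over more bases than are printed. The EGR motif GCGGGGGCG, found in 5.07% of promoters, begins 248 bases before the KLF2 start and 65 bases before the KLF6 start. At KLF2 it overlaps a GC box, GGGGCGGGG, a motif held by 15.7% of promoters, and KLF4 has a pair of GC boxes, 166 bases (opposite strand) and 77 bases before its start, with an E-box CAGCTG (17.9% of promoters) at 225 bases. Searched in the same way on both strands and not found in these 4 sequences were the CACCC boxes CCACACCC (3.28% of promoters) and CCCCACCC (11.1%), the GATA motif AGATAA (10.3%), the AP-1 motif TGACTCA (4.95%), the CRE motif TGACGTCA (1.85%) and the CArG box (1.29%). GC content was 55.2% upstream of KLF1, against 80.0% for KLF2, 69.2% for KLF4 and 72.4% for KLF6. The median over the same 250 bases of all promoters was 58.0%, so KLF1 lay near it. For KLF9, whose sequence is not printed, GC content was 32.4%. The 250 bases of KLF2, KLF4 and KLF6 lie wholly inside the listed site at the gene start, so the counts of that site are counts over the printed sequence and its flanks. The bases printed for KLF1 lie between a site inside the gene, which ends 1238 bases from the start, and a site that begins 3399 bases upstream, and their own accessibility was not analysed here.

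Counts over all sites summed to between 12258890 (6 h replicate 1) and 35548737 (72 h replicate 2) per library. Levels are given as CPM (the count relative to the TMM-scaled library size), and a site or window was called at an adjusted p under 0.05 in the quasi-likelihood test of edgeR. Library scaling moved every value together: the median of all 19303 gene windows at 72 h against 0 h was -0.72 (log2) under TMM, -0.90 under RLE, -0.22 under total counts and 0.25 where the TMM factors were computed only over sites that carried a peak in each of the 6 libraries (called factors from shared peaks here). At 6 h against 0 h these medians were -0.22, -0.37, -0.09 and 0.07. Changes of windows are therefore also given relative to the median window, a difference that these 4 scalings left the same to the second decimal or nearly so. The erythroleukaemic markers GATA1, TAL1, EPOR and GFI1B each had a site with a peak in both 0 h libraries. Megakaryocyte markers had one in 4 of 6 genes at 0 h and in 5 of 6 at 72 h, and markers of other cell types in 6 of 13 and 7 of 13, with ALB, APOA2, CD3G and CD14 among those without.

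The KLF1 window lost accessibility at both times, the KLF2, KLF4 and KLF6 windows gained at 6 h, and the KLF6 window fell again between 6 h and 72 h. The KLF1 window, of the gene at chr19:12884422-12887201 and its flanks, measured 366 and 363 CPM before PMA, 221 and 240 after 6 h, and 128 and 128 after 72 h. The 3 groups of KLF1 values did not overlap and fell in time order. The log2 fold change was -0.66 ± 0.09 (SE) at 6 h and -1.51 ± 0.09 at 72 h against 0 h, with adjusted p-values of 1.2e-05 and 8.7e-11 in edgeR. Relative to the median window KLF1 stood at -0.44 at 6 h and -0.79 at 72 h, and 2.91% of all windows lay below it at 72 h. KLF1 was lower at both times under every scaling, window size and left-out library that was run.

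The KLF6 window (gene at chr10:3775996-3785209) measured 188 and 191 CPM before PMA, 477 and 462 after 6 h, and 140 and 152 after 72 h. Both 6 h libraries were far above all others, and both 72 h libraries lay below both at 0 h. The rise at 6 h was 1.31 ± 0.09 on the log2 scale (adjusted p 7.7e-09, edgeR), rank 299 from the top of 19303 windows. Between 6 h and 72 h the window fell by 1.69 (SE 0.09, adjusted p 5.9e-10), and only 0.0932% of windows fell further. At 72 h against 0 h the KLF6 window stood at -0.38 ± 0.09 under TMM, which total counts (0.12) and the factors from shared peaks (0.59) turned positive and 100 kb on each side left uncalled (adjusted p 0.072), and it was 0.34 above the median window.

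KLF2 (gene at chr19:16324826-16328685) and KLF4 (chr9:107484852-107489769) had the lowest windows at 0 h. The KLF2 window measured 51.8 and 55.5 CPM before PMA, 107 and 120 after 6 h, and 80.1 and 72.0 after 72 h, a rise of 1.08 ± 0.10 at 6 h and of 0.50 ± 0.10 at 72 h against 0 h (adjusted p 1.7e-07 and 8.6e-05, edgeR). Relative to the median window KLF2 was 1.31 higher at 6 h and 1.22 higher at 72 h, so its fall of 0.58 between 6 h and 72 h under TMM was close to that of the median window (-0.51), and it turned to 0.10 under the factors from shared peaks. KLF4 rose from 33.5 and 32.3 CPM before PMA to 46.0 and 47.9 after 6 h, and had 43.1 and 44.5 after 72 h. These are log2 changes of 0.52 ± 0.11 and 0.41 ± 0.11 (adjusted p 0.00072 and 0.0015), or 0.74 and 1.13 above the median window. The KLF4 call at 72 h was lost under RLE (adjusted p 0.056) and with 25 kb on each side (adjusted p 0.20), and its change from 6 h to 72 h (-0.10) was not called and was positive under total counts, the factors from shared peaks and a reach of 100 kb.

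The KLF3, KLF9 and KLF10 windows fell at both times on the TMM scale, with smaller log2 changes than KLF1. KLF3 (chr4:38664199-38701517) went from 168 and 167 CPM before PMA to 125 and 117 after 6 h, then 74.1 and 78.4 after 72 h. KLF9 (chr9:70384604-70414657) went from 189 and 183 to 135 and 161 and then to 82.2 and 89.4. KLF10 (chr8:102648784-102655725) went from 189 and 194 to 146 and 138 and then to 91.4 and 92.5. In each of these 3 genes the groups did not overlap, as in the other KLF windows. How many of all gene windows show no overlap was not counted. Log2 changes at 72 h against 0 h were -1.14 for KLF3, -1.12 for KLF9 and -1.06 for KLF10, which is -0.42, -0.40 and -0.34 relative to the median window. All 3 calls at 72 h were lost under the factors from shared peaks (edgeR adjusted p 0.053, 0.13 and 0.27), and so were all 3 at 6 h (0.063, 0.77 and 0.13). The KLF9 call at 6 h (-0.33 ± 0.09) was also lost under total counts (adjusted p 0.057), with 100 kb on each side (0.14) and without 6 h replicate 1 (0.10). The place of KLF10 against the median window turned with the reach: at 72 h against 0 h it was 0.72 below with 25 kb on each side and 0.45 above with 100 kb, where its own change at 6 h was 0.12. With 100 kb KLF9 was 0.06 above the median window at 6 h.

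**Figure D1:**
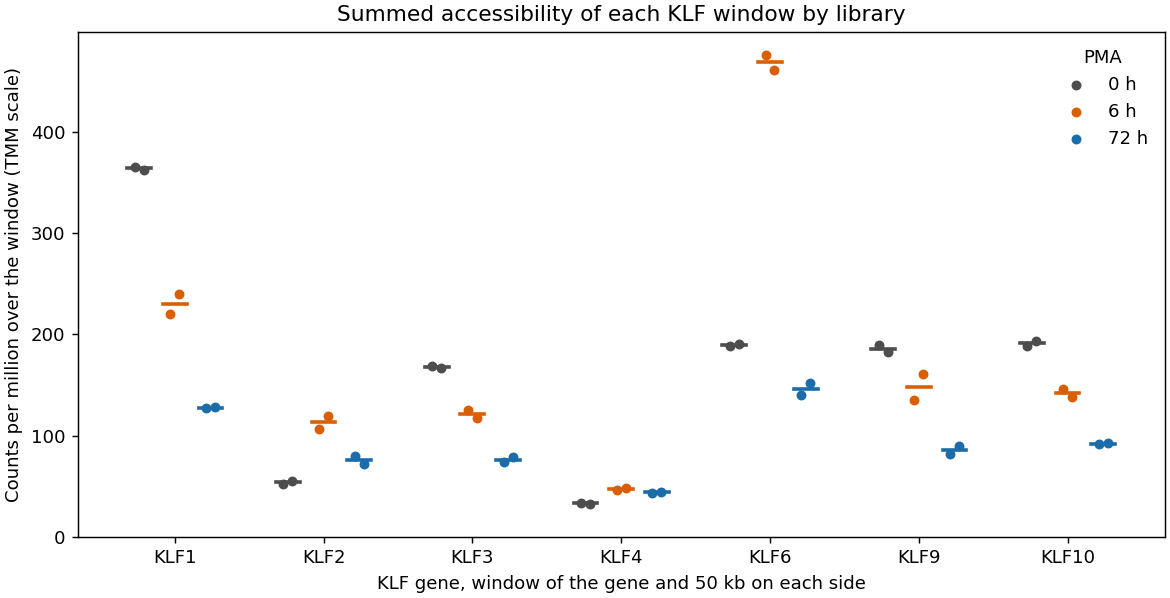
CPM summed over each KLF window (y axis, linear, TMM scale) for the 7 genes; points are single libraries and bars the mean of the 2 libraries at 0 h, 6 h and 72 h. KLF1 steps down from 366 and 363 to 128 and 128 CPM, while KLF6 peaks at 477 and 462 CPM at 6 h; on other scalings the KLF6 position of 72 h against 0 h changes sign.

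Of the 7 windows, 3 were called higher and 4 lower at 6 h against 0 h, where 14.8% of all gene windows were called higher and 46.9% lower. At 72 h against 0 h the calls were 2 higher and 5 lower, against 15.8% and 71.4% of all windows, and at 72 h against 6 h none higher and 6 lower, against 12.6% and 68.2%. A fall at 72 h was thus the common outcome for sums over gene windows on this scale, and windows of neighbouring genes overlap. Single sites did not share it: 38.2% of all tested sites were called higher and 29.2% lower at 72 h against 0 h. Among sites with a peak in all 6 libraries, 67.8% were lower and 9.44% higher. Per kilobase of listed site, the order at 0 h was KLF1 (30.4 CPM per kb), KLF9 (21.2), KLF3 (19.6), KLF10 (16.7), KLF6 (11.1), KLF2 (5.10) and KLF4 (5.08), and KLF2 and KLF4 did not differ beyond their spread. At 6 h KLF6 led at 27.4 CPM per kb, and at 72 h all 7 lay between 6.76 (KLF4) and 10.7 (KLF1).

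The comparison of KLF1 with the other members does not depend on library scaling when the counts of windows are divided within a library. KLF6 over KLF1 was 0.515 and 0.526 before PMA, 2.16 and 1.93 after 6 h, and 1.09 and 1.19 after 72 h. The KLF6 window thus held fewer counts than the KLF1 window in both 0 h libraries and more in all others. This ratio rose 3.92-fold at 6 h and was 2.19-fold above 0 h at 72 h. KLF2 over KLF1 was 0.141 and 0.153 before PMA, 0.485 and 0.50 after 6 h, and 0.627 and 0.563 after 72 h, a rise of 4.04-fold by 72 h. KLF4 over KLF1 was 0.0917 and 0.0889, then 0.209 and 0.200, then 0.338 and 0.348, a rise of 3.80-fold by 72 h. The ratios of KLF3, KLF9 and KLF10 to KLF1 were 1.14- to 1.25-fold above 0 h at 6 h and 1.30- to 1.37-fold above it at 72 h. For all 6 genes the ratios at 6 h and at 72 h did not overlap those at 0 h, and the two-sided exact permutation p of each was 0.33, the smallest that 2 libraries against 2 allow. KLF1 itself fell more than most windows, with 5.19% of all windows below it at 6 h and 2.91% at 72 h. A ratio to KLF1 would thus rise for most gene windows, and how many of them show no overlap was not counted. Between 6 h and 72 h the KLF9 ratios overlapped (exact permutation p 0.667).

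**Figure D2:**
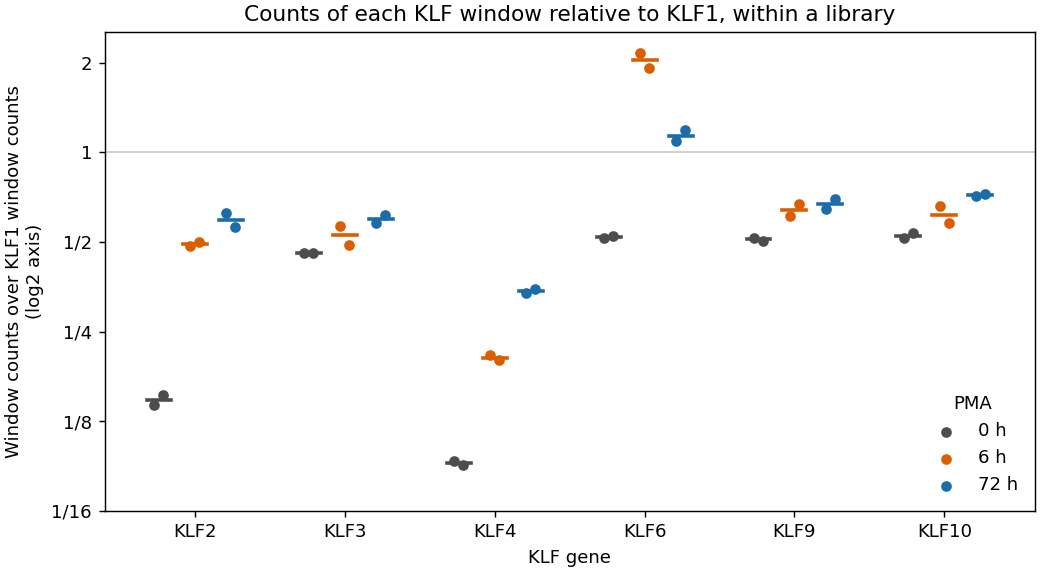
Counts of each KLF window divided by those of the KLF1 window in the same library (y axis, log2), with points for libraries and bars for the geometric mean of 2. KLF6 passes from below 1 at 0 h to about 2 at 6 h, and KLF2 and KLF4 are highest at 72 h; KLF3, KLF9 and KLF10 move least.

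Of the 114 sites, 112 passed the filter on low counts; the others were 1 KLF6 site and 1 KLF10 site, with 3 to 22 and 2 to 20 counts per library. At 6 h against 0 h, 35 of the 112 were called higher and 23 lower, where 23.4% of all tested sites were higher and 16.7% lower. The median change over the 112 sites was 0.25, against 0.05 over all tested sites. KLF6 had 15 of its 25 tested sites higher and none lower, KLF2 had 8 higher and 2 lower of 16, and KLF4 had 5 higher and none lower of 13. KLF1 had 2 higher and 9 lower of 16. The counts were 2 and 4 of 12 at KLF3, 1 and 3 of 13 at KLF9, and 2 and 5 of 17 at KLF10.

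At 72 h against 0 h, 31 KLF sites were higher and 42 lower, with 38.2% of all tested sites higher and 29.2% lower, and the medians were -0.17 for KLF sites and 0.29 for all. KLF1 had 12 of 16 sites lower and 2 higher, with a median of -1.33. KLF2 had 9 higher and 4 lower, KLF4 5 and 1, KLF6 7 and 7, KLF9 3 and 6, KLF10 3 and 6 and KLF3 2 and 6. At 72 h against 6 h, 9 KLF sites were higher and 48 lower, against 22.0% and 21.0% of all tested sites. KLF6 gave 19 of these 48 and KLF1 11, and KLF6 had a median of -1.27. The 3 comparisons share libraries and are not independent of each other. Under the factors from shared peaks the KLF split at 72 h against 0 h was 54 higher and 16 lower, and under total counts 47 sites were higher. On the same factors the median over all tested sites moved from 0.29 to 1.26, and with total counts to 0.79.

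**Figure D3:**
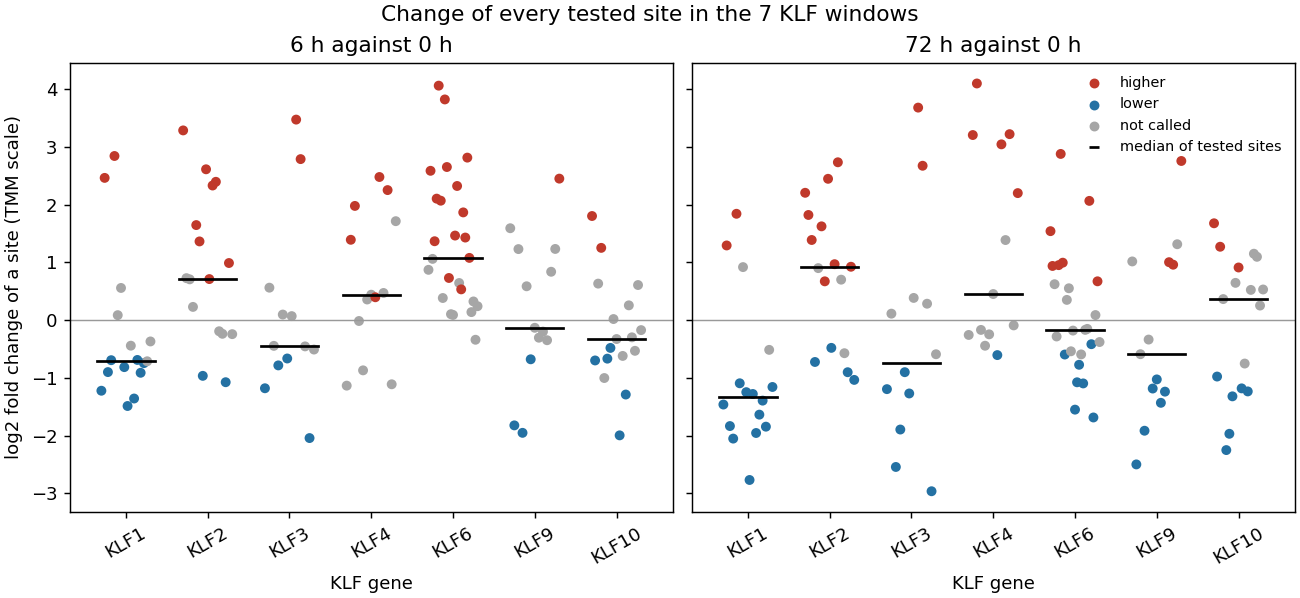
Log2 fold change (TMM scale) of each tested site in the 7 windows at 6 h (left) and 72 h (right) against 0 h, with sites in genomic order within a gene, red called higher, blue called lower, grey not called, and a bar at the median of the gene. KLF6 sites are higher in 15 of 25 cases at 6 h and divided 7 to 7 at 72 h, and KLF1 sites lie mostly below 0 in both panels.

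At KLF1 the fall was spread over the window. The site inside the gene (peak81634, chr19:12884809-12885963), named here after its values were seen, had 63.1 and 71.9 CPM before PMA, 24.0 and 28.5 after 6 h, and 17 and 17.9 after 72 h. Most of its loss was thus in place at 6 h, with log2 changes of -1.36 ± 0.15 and -1.95 ± 0.16 (adjusted p 4.1e-07 and 1.3e-09, edgeR), and its share of the window counts went from 17.2% and 19.8% at 0 h to 10.9% and 11.9% at 6 h. The densest site of the window (peak81635, chr19:12890600-12891466) lies in GCDH, the glutaryl-CoA dehydrogenase gene, 3399 bases upstream of KLF1. It measured 60.4 and 56.5 CPM before PMA, 33.7 and 38.7 after 6 h, and 17.2 and 20.4 after 72 h, changes of -0.69 ± 0.15 and -1.63 ± 0.15. Unlike the site inside the gene it kept its share of the window, 16.5% and 15.6% at 0 h and 15.3% and 16.1% at 6 h.

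The largest fall in the KLF1 window was at peak81632 (chr19:12872580-12873499), in MAST1, a kinase gene named for its microtubule association. It had 26.6 and 14.1 CPM before PMA, 8.87 and 5.96 after 6 h, and 3.36 and 2.59 after 72 h, or -1.48 ± 0.27 and -2.77 ± 0.28. The 0 h libraries differed widely here, and both were above every later one. A rise in the same gene stood against this, at peak81628 (chr19:12843871-12844490), with 1.23 and 2.10 CPM before PMA, 9.38 and 14.8 after 6 h, and 6.36 and 5.92 after 72 h. It was 2.84 ± 0.30 higher at 6 h and 1.84 ± 0.30 higher at 72 h, and lies 42711 bases from the KLF1 start. The window reaches 6 other protein-coding genes (RTBDN, MAST1, DNASE2, GCDH, SYCE2 and FARSA), and which gene a site belongs to was not tested. Only 1 of the 16 sites, peak81634, has KLF1 as its nearest protein-coding gene.

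**Figure D4:**
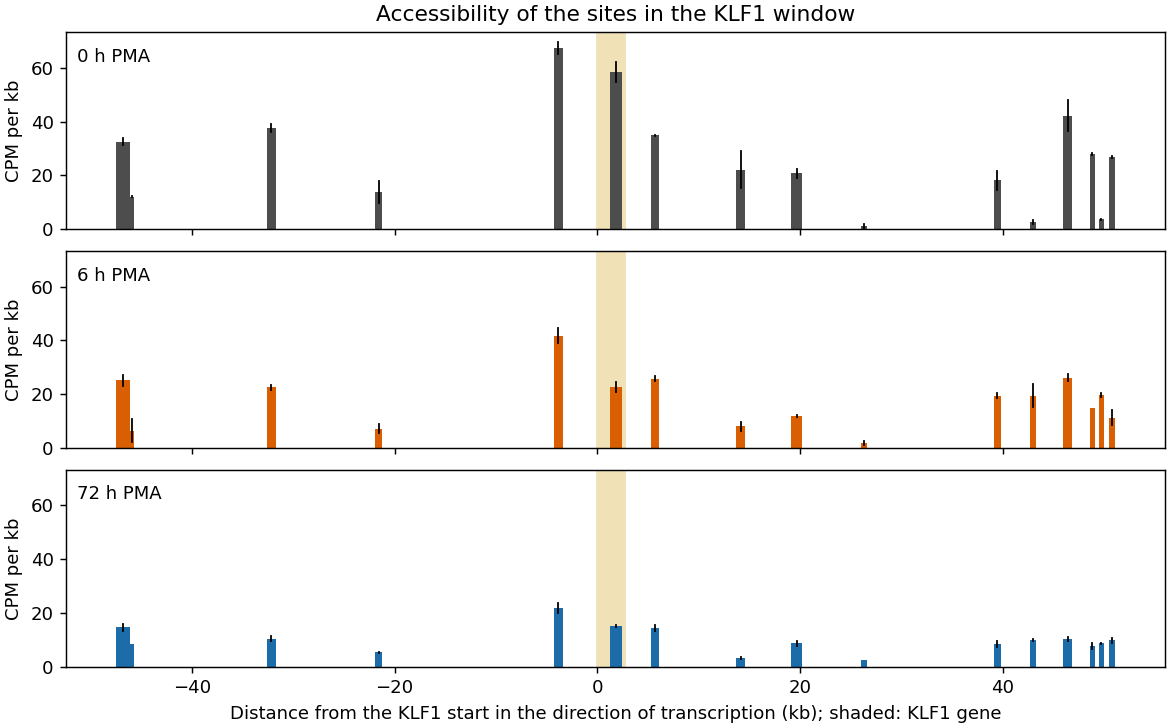
Mean CPM per kb (y axis, TMM scale) of each site in the KLF1 window against its distance from the KLF1 start (x axis, kb in the direction of transcription) at 0 h, 6 h and 72 h; black lines span the 2 libraries and shading marks the gene. The site inside the gene drops from 58.4 to 22.7 and 15.1 CPM per kb, and the site upstream from 67.4 to 41.7 and 21.7.

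At KLF6 the early gain covered both flanks and the gene, while the start itself moved little. Among called KLF6 sites of at least 2 CPM without overlap of libraries, the site with the largest rise at 6 h was peak20696 (chr10:3775149-3776680). This site spans the end of the gene farthest from its start. It had 6.49 and 7.27 CPM before PMA, 99.7 and 95.8 after 6 h, and 8.29 and 9.31 after 72 h. Both 6 h libraries stood far above all others, a rise of 3.82 ± 0.17 (adjusted p 1.3e-12, edgeR) followed by a fall of 3.47 (SE 0.16, adjusted p 3.8e-11). Its share of the window counts was 3.44% and 3.81% before PMA, 20.9% and 20.7% after 6 h, and 5.93% and 6.14% after 72 h, so both 72 h shares were still above both at 0 h. Its change at 72 h against 0 h (0.35, adjusted p 0.062) was not called, and was called higher under total counts (0.85), loess offsets (1.14) and the factors from shared peaks (1.32).

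The start site of KLF6 (peak20700, chr10:3784851-3786079), which contains the KLF6 sequence printed above, had 69.3 and 64.8 CPM before PMA, 73.8 and 69.2 after 6 h, and 19.7 and 26.1 after 72 h. The 0 h and 6 h values overlapped (0.09 ± 0.15, adjusted p 0.65), a change called higher under loess offsets (0.49) and the factors from shared peaks (0.38) and slightly negative under RLE and DESeq2. At 72 h it was 1.55 lower than at 0 h (SE 0.15, adjusted p 1.8e-08), and this call was lost under loess offsets (-0.14). Just upstream of it, 1373 bases from the start, peak20702 went from 5.58 and 4.68 CPM to 27.5 and 23.9 after 6 h and 2.84 and 3.14 after 72 h, so that its 72 h values lay below both at 0 h. Farther upstream, 21320 bases from the start, peak20708 (chr10:3806529-3807119) stayed above 0 h, with 1.75 and 2.10 CPM, then 10.8 and 16.2, then 7.93 and 8.37. Its changes were 2.82 ± 0.27 at 6 h and 2.07 ± 0.27 at 72 h.

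**Figure D5:**
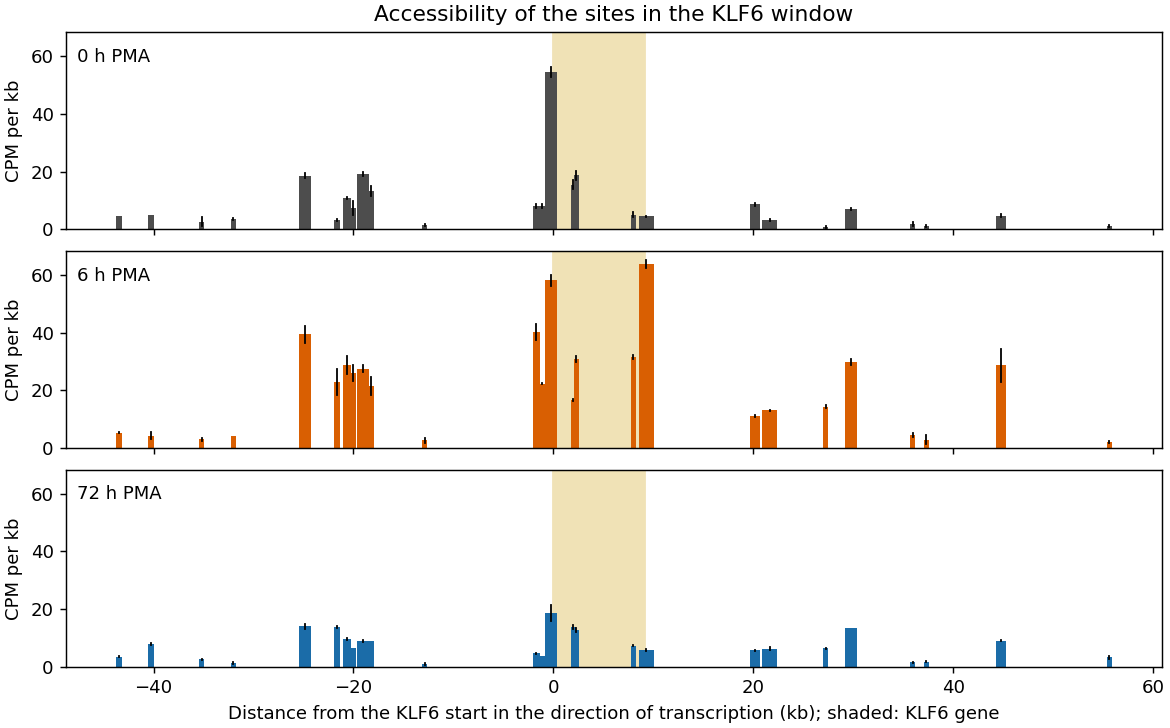
Mean CPM per kb (y axis, TMM scale) of each site in the KLF6 window against its distance from the KLF6 start (x axis, kb in the direction of transcription) at 0 h, 6 h and 72 h; black lines span the 2 libraries and shading marks the gene. The site at the far end of the gene goes from 4.49 to 63.8 and back to 5.75 CPM per kb, and the start site stays at 54.5 and 58.1 before 18.6 at 72 h.

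In the KLF2 window the strongest gains lay away from the start. At peak82036 (chr19:16279106-16279770), 45056 bases upstream, the libraries had 1.30 and 2.10 CPM before PMA, 16.3 and 17.6 after 6 h, and 8.58 and 7.50 after 72 h. This was a rise of 3.29 ± 0.26 at 6 h and 2.21 ± 0.26 at 72 h. Downstream, peak82046 (chr19:16338629-16339501) rose by 2.40 ± 0.33 and 2.74 ± 0.32, from 0.778 and 1.29 CPM to 4.86 and 6.18 and then 8.01 and 6.18. The KLF2 start site (peak82044, chr19:16324259-16325307), over the sequence printed above, was higher after 6 h but lower after 72 h: 17.2 and 16.6 CPM, then 28.1 and 27.2, then 12.1 and 12.2. Its changes were 0.71 ± 0.17 and -0.48 ± 0.17 (adjusted p 0.0019 and 0.016, edgeR). The fall at 72 h was lost without either 72 h library (adjusted p 0.084 in both) and was positive under total counts, loess offsets and the factors from shared peaks. The share of KLF2 window counts in the start site was 33.2% and 29.9% before PMA, 26.3% and 22.7% after 6 h, and 15.1% and 16.9% after 72 h. The largest fall, at peak82049 (chr19:16371389-16371979) in EPS15L1, an endocytic adaptor gene, was -1.07 ± 0.32 at 6 h and -0.90 ± 0.29 at 72 h, from 4.35 and 3.97 CPM at 0 h. Its 6 h call was lost without 6 h replicate 2 (adjusted p 0.13), and its 72 h call without either 72 h library (0.059 and 0.083).

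KLF4 is a member of the set of factors used to reprogram cells to pluripotency, and more sites of its window carried a peak over time. A peak in both libraries was found at 1 of its 13 sites before PMA, 3 after 6 h and 8 after 72 h. Peaks became more numerous over the genome as well, with 61873 and 69152 per library at 0 h and 138914 and 142305 at 72 h. Whether KLF4 differed from the genome in this was not tested. The site peak172678 (chr9:107504320-107505379), 14551 bases upstream, had 1.17 and 1.05 CPM before PMA, 4.09 and 7.79 after 6 h, and 8.89 and 9.40 after 72 h, a rise of 2.48 ± 0.33 and then 3.05 ± 0.32. The site peak172671 (chr9:107446642-107447422), downstream, moved later, with 0.584 and 0.574 CPM, then 1.54 and 1.52, then 6.05 and 4.71. Its rise was 1.39 ± 0.41 at 6 h, lost without 6 h replicate 2 (adjusted p 0.064), and 3.21 ± 0.36 at 72 h, with a further rise of 1.81 ± 0.31 between 6 h and 72 h. The KLF4 start site (peak172677, chr9:107489500-107490540), over the sequence printed above, had 24.3 and 24.0 CPM, then 32.6 and 31.0, then 15.8 and 15.9. It was called higher at 6 h at the edge of the threshold (0.40, adjusted p 0.049, edgeR), a call lost under RLE, with no filter, in DESeq2 and without any 1 of the 6 libraries. At 72 h it was at -0.60 ± 0.16, not called under total counts and positive under loess offsets (0.34) and the factors from shared peaks (0.36). It held 72.3% and 74.2% of the KLF4 window counts at 0 h and 36.6% and 35.8% at 72 h.

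In the KLF3 window the start site and an intragenic site moved in opposite directions. The start site (peak124812, chr4:38663198-38664694) had 75.7 and 87.5 CPM before PMA, 49.8 and 45.3 after 6 h, and 21.5 and 22.5 after 72 h, or -0.78 ± 0.14 and -1.89 ± 0.15 (adjusted p 0.00015 and 9.0e-10, edgeR). Its share of the window went from 44.9% and 52.3% to 39.8% and 38.7% and then to 29.0% and 28.6%. The site peak124816 (chr4:38677931-38678509), 13732 bases into the gene, rose by 3.47 ± 0.38 and 3.68 ± 0.37, from 0.389 and 0.574 CPM to 4.09 and 6.62 and then 5.89 and 6.86. The densest KLF3 site, peak124813 (2745 bases inside the gene), was not called at 6 h (0.10 ± 0.16) and stood at -0.90 ± 0.16 at 72 h, a value that loess offsets (0.10) and the factors from shared peaks (0.07) turned positive.

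KLF9 and KLF10 showed falls at the start and a few gains elsewhere. The KLF9 site nearest its start (peak170683, chr9:70413457-70414425, 232 bases inside the gene) had 40.3 and 43.5 CPM before PMA, 29.2 and 38.4 after 6 h, and 15.8 and 15.3 after 72 h, with changes of -0.30 ± 0.16 and -1.43 ± 0.16. The first was not called, and was called lower without 6 h replicate 2 (adjusted p 0.036). Within the KLF9 gene, peak170679 (chr9:70398001-70398832) had lost most of its accessibility by 6 h, with 21.3 and 19.6 CPM, then 5.03 and 5.48, then 4.86 and 5.99 (-1.95 ± 0.22 and -1.91 ± 0.21). A weak site 40230 bases upstream, peak170688, rose by 2.45 ± 0.46 and 2.76 ± 0.44 from 0.778 and 0.287 CPM.

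The KLF10 start site (peak166271, chr8:102655484-102656459) had 48.2 and 51.6 CPM, then 36.1 and 35.6, then 19.4 and 20.7, or -0.48 ± 0.15 and -1.32 ± 0.15. Its 6 h call was lost without 0 h replicate 2 and without 6 h replicate 1 (adjusted p 0.058 and 0.052) and under 3 scalings, and its 72 h call under loess offsets (-0.13). The stronger site 941 bases inside KLF10 (peak166270) had 94.2 and 92.6 CPM, then 62.8 and 55.2, then 22.9 and 24.9, and its share of the window went from 49.9% and 47.8% at 0 h to 25.1% and 26.9% at 72 h. The far downstream site peak166265 rose by 1.80 ± 0.27 and 1.68 ± 0.27, from 1.69 and 2.68 CPM to 7.42 and 8.05 and then 6.93 and 7.31. The site peak166277, upstream, was lower by -1.29 ± 0.31 at 6 h, a call lost without 6 h replicate 2 (adjusted p 0.071).

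Listed sites overlapped the start of 5 of the 7 genes (KLF2, KLF3, KLF4, KLF6 and KLF10). At 6 h, 2 of these were called higher (KLF2 and KLF4) and 2 lower (KLF3 and KLF10), and at 72 h all 5 were lower than at 0 h and lower than at 6 h on the TMM scale, the KLF2 and KLF4 falls against 0 h turning positive under the scalings named above. All 5 had a peak in every library. Among the 36 KLF sites with a peak in all 6 libraries, 27 were lower and 4 higher at 72 h against 0 h, while of the 35751 such sites among all tested sites 67.8% were lower and 9.44% higher. The KLF share of falls is thus close to that of all sites with a peak in every library. Sites with a peak in both libraries of a group numbered 43 of 114 before PMA, 50 after 6 h and 73 after 72 h. At KLF1 that number was 12, 11 and 12 of 16 sites, and at KLF6 7, 11 and 14 of 26. Over the genome the libraries had 61873 and 69152 peaks before PMA, 65336 and 93015 after 6 h, and 138914 and 142305 after 72 h. The 72 h libraries were deeper than those of 0 h, and the part of depth in these peak counts was not tested.

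The other KLF genes went both ways. Of 10 windows (KLF5, KLF7, KLF8 and KLF11 to KLF17), 3 were higher and 3 lower at 6 h, and 3 higher and 5 lower at 72 h against 0 h, a split that the factors from shared peaks turned to 6 higher and 2 lower. Over all gene windows 14.8% were called higher and 46.9% lower at 6 h, and 15.8% and 71.4% at 72 h. These shares are on the TMM scale and are the background for the TMM counts of this and the next lists. Shares of all windows under the other scalings were not counted, so the counts on those scalings have no such background here. Under the factors from shared peaks the median window stood at 0.07 at 6 h and 0.25 at 72 h. KLF15 (0.80 and 0.97) and KLF7 (0.47 and 1.01) rose at both times, and KLF16 (-0.66 and -1.59) and KLF11 (-0.52 and -1.58) fell at both, in the same direction under all 4 scalings. Of the 9 windows of the related SP factors, which bind GC boxes, none was higher and 7 were lower at 6 h, and 9 were lower at 72 h, with a median of -1.07 against -0.72 for all windows. The 7 lower at 6 h became 4 under total counts, and 2 with 1 higher under the factors from shared peaks. Under those factors the SP calls at 72 h were 2 higher and 2 lower, while 8 of 9 lay below the median window under each scaling. Erythroid genes known as KLF1 targets were called lower in 11 of 12 windows at each time, as KLF1 was, with medians of -0.49 and -1.23 against -0.22 and -0.72 for all windows. Under the factors from shared peaks 6 of the 12 were lower and 1 higher at 6 h, 7 were lower and 3 higher at 72 h, and 10 of 12 lay below the median window under each scaling. Among them were ALAS2, the first enzyme of erythroid haem synthesis (-0.95 and -1.24), AHSP, the alpha-globin chaperone (-0.80 and -1.24), and PKLR, the red cell pyruvate kinase (-0.63 and -1.44). The exception was CD44, an adhesion receptor, which rose by 2.0 ± 0.11 and 2.36 ± 0.11, from 34.1 and 38.5 CPM to 130 and 160 and then 180 and 195.

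Among 16899 gene windows of at least 20 CPM, less those overlapping the KLF window, likeness was measured as the root-mean-square distance between profiles of log2 CPM over the 6 libraries, each centred on its mean. Closest to KLF1 were KEAP1 (distance 0.016), PAXX and CCL25, and closest to KLF10 were SLC71A2 (0.017), SLC52A1 and FECH. KLF6 had no such close match: its nearest was CXCL8 (0.16), the gene of the chemokine interleukin-8, which stood at 1.26 at 6 h and -0.48 at 72 h, then GALP and ZSCAN5B. KLF2 was closest to AATF (0.055), IL6R and ELMOD1, KLF4 to PAPLN (0.033), INHBB and TNNT2, KLF3 to CCIN (0.021), SSBP1 and BIRC3, and KLF9 to HEXIM2 (0.013), TMEM102 and CHRNB1. Among the 7 genes themselves KLF3 and KLF10 were most alike (0.041) and KLF1 and KLF2 least (0.89). All distances rest on 6 libraries in 3 groups.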

How the data were processed

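ATAC-seq counts of 6 K562 libraries were used. The authors deposited a table of raw read counts per site and library, whole numbers with a different total in each library. The same deposited table gives the authors' log2 fold change at 6 h and 72 h, an adjusted p-value and a class name per site. Deposited peak lists, one per library, give the authors' score, a fold enrichment (a ratio to local background) and p- and q-values as −log10, in the narrowPeak layout; peaks were called per library, as the separate lists show. Trim Galore 0.4.3, BWA 0.7.17, SAMtools 1.9, deepTools 3.0.1, MACS2, bedtools 2.26, DESeq and the build hg38 are named in the submitters' processing notes, without role or order; read filters and whether reads were shifted for the transposase are not given in the sources used here.

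Gene positions came from RefSeq (GRCh38.p14), with the strand of KLF3 and KLF10 from general knowledge, and promoter sequences from the RefSeq promoter table, which matched 5 of the 7 genes. Counts were fitted with the quasi-likelihood test of edgeR 4.0.16 (R 4.3.3) on all 6 libraries, with time as the only term, TMM scaling and the default filter at a minimum count of 10, which left 177759 sites and removed 3376. Adjusted p-values are Benjamini-Hochberg over all tested sites, or over 19303 windows for window sums, and the threshold was 0.05. Counts in a window were summed and scaled by the library sizes of the site table. The SE is the log2 fold change divided by the root of F. The biological coefficient of variation was 0.166, and replicates differed by more than sampling noise (chi-square per degree of freedom 4.97, 4.43 and 3.51 at 0, 6 and 72 h). The fits were tested on simulated data. Named sites are the start site within 1000 bases, the largest rise and fall at 6 h and at 72 h among called sites of at least 2 CPM without overlap of libraries, and the densest site of each gene; the 3 nearest windows by profile and up to 3 genes per context list, contrast and direction were named too. The members, lists and rules were chosen with earlier results of these data known. Alternatives covered scaling, filter, DESeq2 1.42.0, threshold, a replicate block, left-out libraries and window size. One marker of the erythroid list is not reported here.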

Additional observations from a re-analysis of the deposited data

Results flagged for a closer look

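At 7 of the 112 tested KLF sites the change against 0 h was called in one direction at 6 h and in the other at 72 h. The difference between 72 h and 6 h was also called in edgeR, and these comparisons share libraries. How many of all tested sites took such a course was not counted, so 7 cannot be called many or few. Of all tested sites 23.4% were called higher and 16.7% lower at 6 h, and 38.2% and 29.2% at 72 h against 0 h. In the KLF6 window, peak20702 differed by -3.10 (log2, 72 h against 6 h), peak20701 by -2.54, peak20705 by -1.63 and peak20709 by -1.49, each higher than 0 h at 6 h and lower at 72 h. The start sites of KLF2 (peak82044, -1.19) and KLF4 (peak172677, -1.001) took the same course. KLF2 peak82042, 8191 bases upstream of the start, took the opposite one (1.64), with 7.46 and 6.41 CPM before PMA, 2.56 and 4.21 after 6 h, and 11.5 and 10.6 after 72 h.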

How the results depend on the processing

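KLF6 and KLF2 windows stayed higher at 6 h, and KLF1 lower at both times, under every alternative run. The reach set the counts through the sites it took in (114 at 50 kb on each side): of 221 sites with 100 kb 70 were higher and 38 lower by 6 h, 70 and 77 by 72 h, and 24 and 80 between 6 h and 72 h; of 66 with 25 kb 15 were lower at 6 h, 15 higher at 72 h and 5 higher at 72 h against 6 h. Total counts gave 47 higher at 72 h and 21 at 72 h against 6 h, and the factors from shared peaks 54 and 30 higher with 16 and 21 lower. Sites lower at 6 h came to 9 at adjusted p under 0.01 and log2 change above 1, and to 13 of the 89 sites nearest to the KLF gene. The share of all tested sites called under each setting of this paragraph was not counted. Its counts thus have no such background and are not results about the KLF sites alone. The median of all tested sites at 72 h against 0 h was 0.29 in the main fit, 0.79 under total counts and 1.26 under the factors from shared peaks. Leaving out 1 library gave 28 to 34 higher and 18 to 24 lower by 6 h, 24 to 31 and 34 to 44 by 72 h, and 5 (without 72 h replicate 2) to 12 and 36 to 50 between 6 h and 72 h. Signs turned for these log2 values at 72 h against 0 h: KLF2 start 0.022 (total counts), 0.29 (loess) and 0.49 (shared peaks), KLF2 peak82049 0.067 (shared), KLF3 peak124813 0.10 (loess) and 0.066 (shared), KLF4 start 0.34 (loess) and 0.36 (shared), KLF6 window 0.12 (total) and 0.59 (shared). At 6 h they turned for KLF3 peak124813, -0.051 (RLE), -0.054 (DESeq2) and -0.039 (without 0 h replicate 2), for the KLF6 start, -0.059 (RLE) and -0.061 (DESeq2), and for the KLF10 window, 0.12 (100 kb). At 72 h against 6 h they turned for windows of KLF2 (0.10), KLF3 (0.012) and KLF10 (0.050) with shared peaks, and of KLF4 with total counts (0.26), shared peaks (0.57) and 100 kb (0.24). The cause was not tested. The difference of replicate 1 from replicate 2 at each site was correlated between time groups. The correlation was 0.131 for 0 h and 6 h, 0.0763 for 0 h and 72 h, and 0.118 for 6 h and 72 h. In the authors' deposited table the column names end in the same code for a replicate number at every time, and the meaning of that code is not given. The main fit did not take the replicate numbers as pairs. These correlations, small and positive, cannot decide whether they are. The replicate block gave 35 higher and 26 lower by 6 h, then 33 and 43 by 72 h, and called KLF6 peak20696 higher at 72 h (0.35, adjusted p 0.034, edgeR).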

Other observations

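In the authors' deposited table the 2 columns of adjusted p-values, for 6 h and for 72 h, are identical, and 71 of the 114 KLF sites have a value under 0.05, against 57.3% of all sites. The class names in the authors' deposited table do not follow the sign of its fold changes: over all sites the class downEarly has 8943 members whose log2 fold changes at 72 h have a median of 2.257, and upLate 21243 with 2.277. In the authors' deposited table KLF1 peak81634, with -1.49 at 6 h and -2.12 at 72 h, is classed upLate, and KLF2 peak82036, with 3.09 and 1.99, downEarly. The classes were not used here.

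Deposited peaks without a listed site lay in the KLF3 window (1 peak, 0 h replicate 1) and the KLF10 window (1 peak, 6 h replicate 2).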
